A study of Rattus norvegicus with 12 samples.

Results

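The DMSO control myotubes of this series are rat L6 cells, a skeletal muscle line whose myoblasts fuse in culture, that had been differentiated and then received the solvent DMSO with no compound. They were chosen by their treatment label, control, which 3 of the 12 arrays carry. The other 9 arrays are of L6 myotubes given 60 µM of GR24, a synthetic strigolactone, or of the plant stilbenes pinosylvin or resveratrol, each in DMSO, for 24 h, with 3 arrays per compound. All groups share the line, 6 days of differentiation by the sample labels, and the solvent, and the study's methods give a different day. Each group comes from 3 independent experiments, numbered 1 to 3, with 1 array per group and experiment, so the values describe 1 cell line and p-values measure only the spread between these samples. The label control was read as solvent control throughout, and no array of cells without DMSO is in the series.

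Myoblasts leave the cell cycle, switch on the myogenic transcription factors, fuse, and assemble sarcomeres from actin, myosin, troponin and tropomyosin. Cultured myotubes are known to use embryonic and neonatal forms of several of these proteins, and to take up glucose in response to insulin. Skeletal muscle is also a target of hormones and cytokines and secretes factors of its own.

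Each array was read in 1 colour and held 58717 spots other than controls, for 45598 probes. The processed signal is a fluorescence intensity in arbitrary units from which the scanner software had subtracted the background. The software also marks each spot as well above background or not. Of the spots, 62.2%, 59.5% and 64.3% carried this mark on the control arrays of experiments 1, 2 and 3, and no spot was saturated. The lowest signals of probes with the mark on the same array were 26.7, 28.5 and 25.4. The 75th percentile of the signal over probes was 973, 732 and 1038, so the array of experiment 2 was dimmer as a whole, and its raw signals are the lowest for most genes below. Log2 values are therefore given relative to this percentile of the same array. Among the probes marked on all 3 arrays, the median SD of this log2 value was 0.13, and 158 probes had an SD above 1. The number of arrays limits the precision of every value.

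Of the 45598 probes, 22689 (49.8%) were well above background on all 3 control arrays, 4218 on 1 or 2 of them and 18691 (41.0%) on none. A gene table named 21109 probes, for 16581 genes. A gene is called detected here if at least 1 of its probes carried the mark on all 3 control arrays, absent if no probe carried it on any, and partly detected otherwise. By this rule 10285 named genes (62%) were detected, 1231 (7.42%) partly detected and 5065 (30.5%) absent. Among named probes, 62.6% of those for protein-coding genes and 25.1% of those for long non-coding RNAs were marked on all 3 arrays. The signal of a probe depends on its sequence as well as on its transcript, so signals of different genes are not compared as amounts, and an absent gene is one whose probes gave no signal well above background.

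Acta1, which encodes skeletal alpha-actin of the thin filament, gave signals of 38084, 28812 and 34917 in experiments 1, 2 and 3. Myog, the transcription factor myogenin that drives differentiation, gave 36707, 27811 and 35083. Tnnt3, the troponin T of fast fibres, gave 56776, 48622 and 62258. All 3 genes stood far above the lowest marked signals on each array, and the log2 values were 5.22 ± 0.13, 5.19 ± 0.09 and 5.94 ± 0.10 (SD, n = 3). Ckm, muscle creatine kinase, gave 4446, 3251 and 3850, a log2 value of 2.08 ± 0.16 (SD, n = 3). The 4 genes that mark these cells as myotubes were thus each well above background in every experiment.

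Promoter sequences of Acta1, Myog and Ckm are shown because these markers were all bright in the control and all far dimmer on the GR24 arrays, with the values given in the comparison with the compounds. The 250 bases before each gene's start are from RefSeq for the build GRCr8, 5′ to 3′ on the gene's strand, at chr19:68784195-68784444 (minus strand), chr13:48297226-48297475 (plus strand) and chr1:88189211-88189460 (plus strand). Capitals mark E-boxes, CANNTG, the letters that myogenic transcription factors such as myogenin are known to bind. Tnnt3 is named only.
Acta1: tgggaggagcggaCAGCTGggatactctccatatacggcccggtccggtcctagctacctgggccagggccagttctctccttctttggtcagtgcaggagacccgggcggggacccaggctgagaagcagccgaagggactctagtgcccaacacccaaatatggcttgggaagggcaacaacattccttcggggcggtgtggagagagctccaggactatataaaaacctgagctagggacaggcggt
Myog: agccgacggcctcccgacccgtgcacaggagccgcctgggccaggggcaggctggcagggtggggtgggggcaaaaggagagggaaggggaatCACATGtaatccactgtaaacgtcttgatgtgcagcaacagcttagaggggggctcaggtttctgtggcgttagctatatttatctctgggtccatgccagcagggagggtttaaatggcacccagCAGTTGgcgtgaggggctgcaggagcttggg
Ckm: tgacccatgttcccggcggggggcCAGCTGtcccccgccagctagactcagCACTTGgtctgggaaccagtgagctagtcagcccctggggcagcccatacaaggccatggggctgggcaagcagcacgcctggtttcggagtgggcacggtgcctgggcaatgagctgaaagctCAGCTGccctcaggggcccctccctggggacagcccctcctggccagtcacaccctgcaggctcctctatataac
Acta1 held 1 E-box, Myog 2 and Ckm 3, and the form CAGCTG occurred once in Acta1 and 2 times in Ckm. Acta1 also held TATAAA and a CArG box, the motif of serum response factor. Both strands were searched, and CAGCTG is a subset of CANNTG. Of 33469 promoter windows of this length, 65.5% held CANNTG, 12% held CAGCTG, 12.9% held TATAAA, 2.96% held a MEF2 box and 1.5% held a CArG box. Of the 75 windows matched to detected genes of the muscle lists, 72% held CANNTG, 32% held CAGCTG, 18.7% held TATAAA, 10.7% held a MEF2 box and 8% held a CArG box. A match is a description of letters and not of binding.

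**Figure D1:**
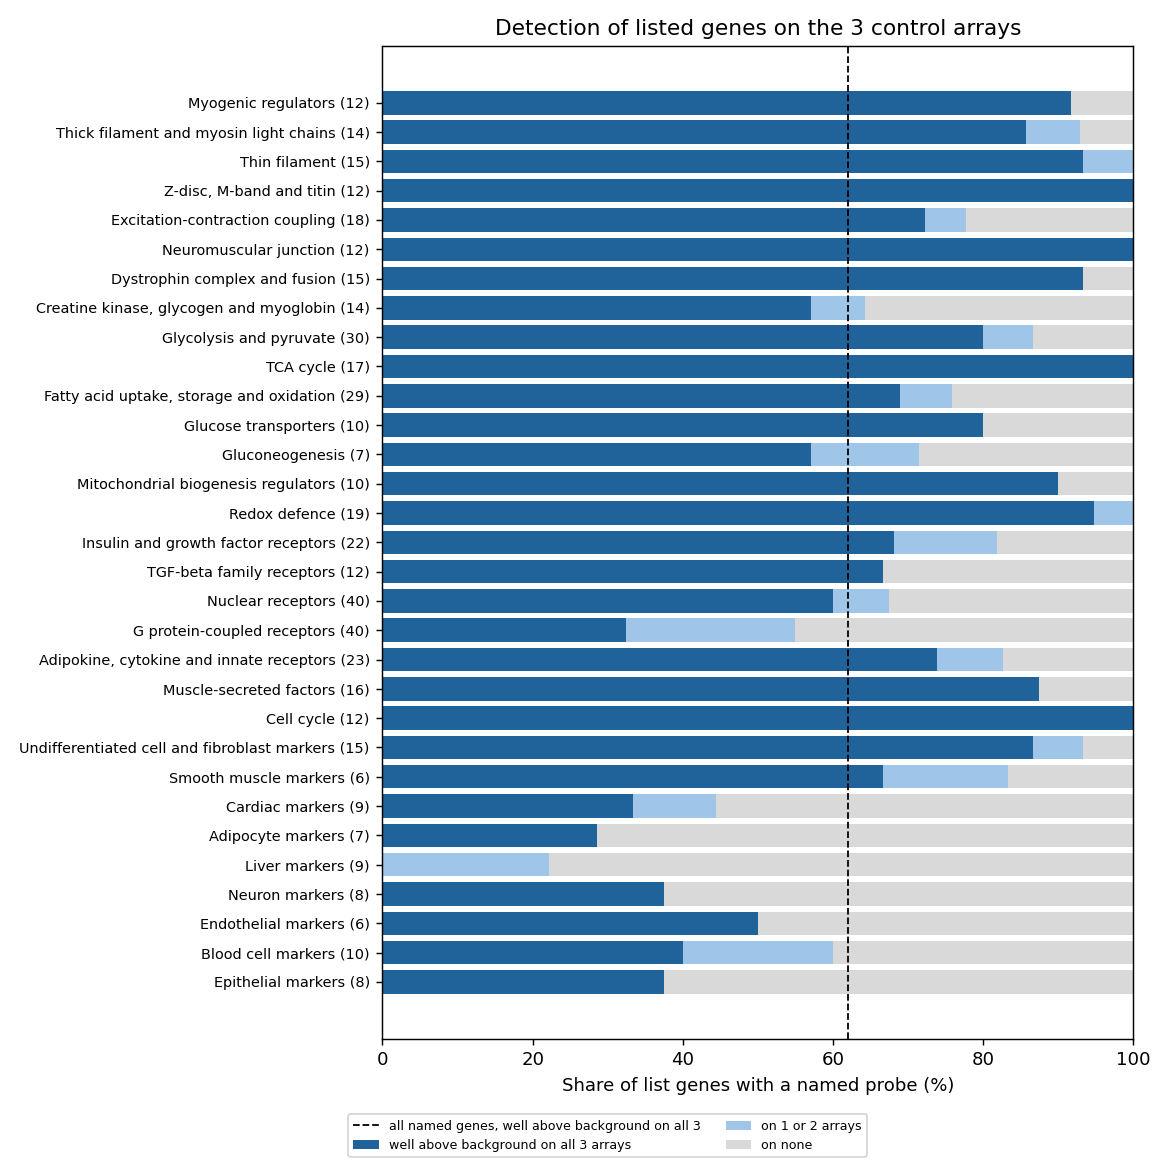
Share of the measured genes of each list (number in brackets) that were well above background on all 3, on 1 or 2, or on none of the DMSO control arrays, in percent. The dashed line is the share detected among all named genes, 62%, and the lists of the TCA cycle, the neuromuscular junction, the Z-disc and the cell cycle stand at 100%.

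Of 112 muscle genes with a named probe, in 8 lists, 96 (85.7%) were detected, beside 62% of all named genes. The lists were those of the Z-disc and M-band (12 of 12 detected), the neuromuscular junction (12 of 12), the thin filament (14 of 15), the dystrophin complex and fusion (14 of 15), the myogenic regulators (11 of 12), the thick filament (12 of 14), excitation-contraction coupling (13 of 18) and creatine kinase, glycogen and myoglobin (8 of 14). Some central muscle genes, among them Ttn, Neb, Ryr1, Mef2c and the fusion genes Mymk and Mymx, have no named probe on the array.

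Among the myogenic regulators, Myf5, a factor of muscle commitment, gave signals of 5054, 3686 and 5758. Pax3, known from muscle precursors, gave 10299, 7968 and 15428. Mef2d, a cofactor of the myogenic factors, gave 9330, 6503 and 9047. These 3 genes were bright in every experiment. Myod1, the factor that commits cells to muscle, gave only 59.3, 44.6 and 66.1. The satellite cell factor Pax7 gave 57.2, 34.1 and 55.2 on 1 of 2 probes, and its other probe was absent. Both genes were marked on all 3 arrays by these values but lay close to the lowest marked signals. Myf6, the late myogenic factor, gave 148, 80.3 and 111. Mstn, the gene of myostatin, which limits muscle growth, was absent, with signals of 6.24, 6.84 and 20.5.

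The sarcomere genes included several of the brightest probes. Myh3, embryonic myosin heavy chain, gave 444361, 365930 and 446952. Myh8, the perinatal form, gave 51562, 34052 and 44120, and Myh1, a fast adult form, gave 37493, 24422 and 32112. The embryonic and perinatal genes were thus present together with the adult fast gene Myh1. Myh4, the fastest form, gave 1373, 993 and 1177, and Myh7, the slow form, gave 1575, 944 and 1060. Myh2, the other fast adult form, was absent, with 24.1, 6.26 and 10.3. Of the light chains, Myl11 and Myl4 were bright, Myl3 gave 74.6, 51.8 and 66.1, and Myl2 was only partly detected.

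In the thin filament, both slow and fast troponins were detected: Tnnc1, Tnni1 and Tnnt1 of slow fibres, and Tnnc2, Tnni2 and Tnnt3 of fast fibres. Tnnt2, the troponin T known from heart and immature skeletal muscle, gave 347046, 303079 and 355635. Actc1, cardiac alpha-actin, which immature skeletal muscle also uses, gave 68504, 57346 and 68908. Both are far above background in each experiment. Tmod4, a pointed-end capping protein, was the single measured gene of this list that was not detected, and it was marked on some arrays only. In the Z-disc list, Cryab, a small heat shock protein that protects the Z-disc, gave 258409, 225883 and 264728, and Des, the muscle intermediate filament desmin, gave 429, 283 and 352.

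For calcium handling, Atp2a1 and Atp2a2, the calcium pumps of the sarcoplasmic reticulum, gave 15026, 11392 and 14802 and 53267, 39724 and 55198. Cacna1s, the voltage sensor of the muscle calcium channel, gave 2115, 1396 and 1794. Casq2, a calcium store protein, gave 117550, 109160 and 144680, and its fast-fibre relative Casq1 gave 1268, 858 and 1104. Pumps, channel and store proteins were thus all present. Among the 5 genes of this list that were not detected, Clcn1, the muscle chloride channel, and Kcnj2, a potassium channel, were absent, with signals of at most 6.90 on the brighter of its probes and of at most 7.46. Pvalb, the calcium buffer of fast fibres, and Jph1, which couples the membrane systems, were absent too, while Scn4a, the muscle sodium channel, was partly detected with 77.0, 25.9 and 29.1.

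All 5 muscle subunits of the acetylcholine receptor were detected. Chrng, the subunit of the fetal receptor, gave 20268, 18022 and 19628. Chrne, which replaces it in adult muscle, gave 66.9, 50.2 and 56.5. Its signal is close to the lowest marked signals, but the probes of the genes differ and no ratio is given. Musk, Rapsn, Dok7 and Lrp4, which cluster the receptor, were detected. So were the sarcoglycans Sgca, Sgcb and Sgcd and the caveolin Cav3, with 73786, 59983 and 74109, whereas Dmd, dystrophin itself, gave 77.9, 45.6 and 66.2 on 1 of 3 probes. Cdh2, N-cadherin, was the absent gene of that list, while the muscle cadherin Cdh15 gave 7777, 6496 and 6762.

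**Figure D2:**
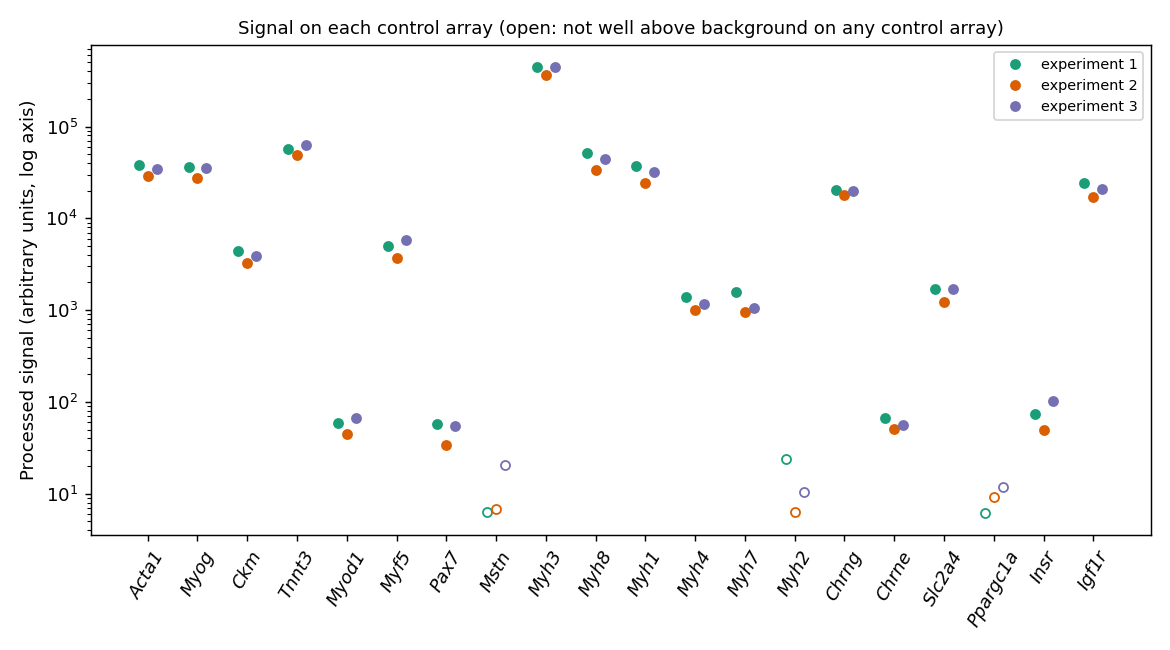
Processed signal, in arbitrary units on a log axis, of 20 muscle, metabolic and receptor genes on each of the 3 DMSO control arrays, with open points for genes absent on all 3. Mstn, Myh2 and Ppargc1a lie at or below 24.1, and Myod1, Pax7, Chrne and Insr lie between 34.1 and 102.

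Metabolic genes were detected at a share close to that of the muscle genes, 100 of 122 (82.0%). All 17 measured genes of the TCA cycle were detected, for example Cs, citrate synthase, with 11586, 8855 and 11437. Of the glycolysis and pyruvate genes 24 of 30 were detected, of mitochondrial biogenesis regulators 9 of 10, of redox defence 18 of 19, of glucose transporters 8 of 10, of fatty acid genes 20 of 29 and of gluconeogenesis genes 4 of 7. The hexokinases Hk1 and Hk2, which trap glucose in the cell, gave 1321, 940 and 1144 and 167, 132 and 225. Pfkm, the muscle phosphofructokinase, gave 12779, 9934 and 12628. Ldha, lactate dehydrogenase A, gave 278752, 248685 and 292175. The path from glucose to lactate was thus present at every measured step. Pklr, the pyruvate kinase of liver, Hk3 and the testis form Ldhc were absent.

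Slc2a4, the insulin-responsive glucose transporter of muscle, gave 1689, 1226 and 1693. Slc2a1, the basal transporter, gave 1541, 1062 and 1383. Slc2a2, the transporter of liver and pancreas, was absent, with 6.43, 7.11 and 6.59. Glycogen synthase of muscle, Gys1, was detected with 5875, 4454 and 6255 and the liver form Gys2 was absent, as was the liver phosphorylase Pygl, while the muscle phosphorylase Pygm gave 165, 106 and 136. Mb, the oxygen store myoglobin, gave 625, 417 and 755. Forms known from other tissues were found as well, such as the brain phosphorylase Pygb with 1445, 1007 and 1451, while Ckb, the brain creatine kinase, was absent. Phkg1 and Ppp1r3a, which act on glycogen breakdown and storage in muscle, were absent and Phka1 was partly detected.

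In the fatty acid list, genes of oxidation were among those detected. Cpt1b, the muscle form of the carnitine transferase that admits fatty acids to mitochondria, gave 461, 350 and 542. Acadl, which starts the oxidation of long chains, gave 20399, 15897 and 20071, and Hadha, of the trifunctional enzyme, gave 30319, 22161 and 29328. The lipid droplet coats Plin2, Plin4 and Plin5 were absent, as were the carriers Fabp1, Fabp4 and Fabp5, whereas the muscle carrier Fabp3 gave 3166, 2344 and 3126. Cd36, the fatty acid uptake receptor, gave 57.6, 43.5 and 57.7. Pdk4, the kinase that restrains glucose oxidation in fasting, was absent with 23.5, 33.4 and 21.5, while Pdk1, Pdk2 and Pdk3 were detected. Ucp1, the uncoupling protein of brown fat, was absent.

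Ppargc1a, the coactivator that drives mitochondrial biogenesis in muscle, was absent, with signals of 6.17, 9.26 and 11.96 on its 1 probe. Its relatives Ppargc1b, with 158, 116 and 119, and Pprc1, with 3626, 2644 and 3785, were detected. Tfam, which packages mitochondrial DNA, gave 7281, 6167 and 8550. The regulators other than Ppargc1a were thus found in each experiment. Of the redox genes, Gclm, part of the enzyme of glutathione synthesis, was partly detected, with 6.54, 12.2 and 50.1.

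Of the receptor genes 77 of 137 (56.2%) were detected, near the 62% of all named genes. The lists lay on both sides of that share: 17 of 23 adipokine, cytokine and innate receptors, 15 of 22 insulin and growth factor receptors, 8 of 12 receptors of the TGF-beta family, 24 of 40 nuclear receptors and 13 of 40 G protein-coupled receptors were detected. Insr, the insulin receptor, gave 73.0, 49.97 and 102. Igf1r, the receptor of insulin-like growth factor, gave 24558, 17296 and 20767, and Igf2r, which clears the related ligand, gave 62162, 40988 and 56155. All 3 were marked on every array, with Insr within reach of the lowest marked signals. The growth factor receptors Erbb2, Fgfr1, Fgfr3, Pdgfrb and Met were detected, and Erbb4, Flt1, Ntrk3 and Ret were absent.

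Among the nuclear receptors, Thra, the thyroid hormone receptor alpha, gave 17625, 14088 and 14440. Nr3c1, the glucocorticoid receptor, gave 6562, 4975 and 5606. Esrra, a regulator of oxidative metabolism, gave 14800, 10772 and 16715. These were bright in all experiments. The oestrogen and progesterone receptors Esr1, Esr2 and Pgr were absent, with signals of at most 5.65, 12.02 and 6.68. Pparg, the fat cell regulator, Nr1h3, a sterol receptor, and Esrrb and Esrrg were absent as well, while Ppara and Ppard gave 141, 119 and 146 and 116, 81.1 and 161. Vdr, the vitamin D receptor, was partly detected.

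Of the G protein-coupled receptors, Adrb1, an adrenergic receptor known from heart, was partly detected, with 44.1, 33.4 and 50.1, and Adrb3, known from fat cells, was absent, with 5.38, 5.79 and 5.78. Adra1a, Adra1b and Adra1d, the alpha receptors that constrict vessels, were absent. Lpar1, for lysophosphatidic acid, gave 7144, 5032 and 8472 and Ptger4, for prostaglandin E, gave 5031, 3943 and 5565. Glp1r, Gipr and Tshr, receptors of gut and pituitary hormones, were absent.

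The adiponectin receptors Adipor1 and Adipor2 gave 13491, 11243 and 17056 and 9591, 6916 and 9946. Il6st, the signalling chain shared by the interleukin 6 family, gave 20731, 15588 and 20461. Its partners were found less: Il6r was partly detected, with 24.0, 32.6 and 38.6, and Lifr, Osmr and Cntfr were absent. The interferon receptor genes Ifngr1 and Ifngr2, the tumour necrosis factor receptor Tnfrsf1a and the innate receptors Tlr2, Tlr3 and Tlr4 were detected. Tlr9, a sensor of DNA, gave 67.7, 302 and 143, which is the widest spread among the detected genes of the lists (log2 SD 1.29). Of the secreted factors 14 of 16 (87.5%) were detected, with Sparc, a matrix protein, at 289753, 243553 and 316553 and Igf2, an insulin-like growth factor, at 39707, 33534 and 39261. Fgf21 and Gdf15, stress hormones, were absent.

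The cell cycle list, which holds both genes of dividing cells and the inhibitors Cdkn1a and Cdkn1c, had 12 of 12 measured members detected. Mki67, a marker of cycling cells, gave 20263, 11722 and 17164, and Cdk1, the mitotic kinase, gave 32847, 25387 and 33656. Cdkn1a, the inhibitor that rises when myoblasts leave the cycle, gave 48317, 36521 and 51325. Marker genes of cycling and of arrested cells were thus both bright, and a few cells with much of a transcript cannot be told apart from many cells with little. Of 15 genes of undifferentiated cells and fibroblasts, 13 were detected, among them the collagens Col1a1, Col1a2 and Col3a1, the filament gene Vim and S100a4, with 359756, 335411 and 406723. Id3, an inhibitor of differentiation, was partly detected with 20.3, 6.65 and 153, and Tcf21, a fibroblast factor, was absent.

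Among markers of other tissues, the liver list had 0 of 9 detected, with Alb, albumin, at 5.97, 6.46 and 6.05. The counts were 2 of 7 for adipocytes, 3 of 9 for heart, 3 of 8 for neurons, 3 of 8 for epithelia, 3 of 6 for endothelium, 4 of 10 for blood cells and 4 of 6 for smooth muscle. Absent markers were Adipoq, Lep and Fabp4 of fat cells, Nkx2-5 and Gata4 of heart, Rbfox3 and Snap25 of neurons, Epcam and Cdh1 of epithelia, Pecam1 and Tie1 of endothelium and Ptprc and Cd3e of blood cells. Detected ones were Cdh5, Tek and Vwf of endothelium, Vwf with 4277, 3079 and 5045 on the brighter of its 2 probes. Myh6, Nppb and Tnni3 of heart, Csf1r, Cd68 and Cd14 of blood cells and Cebpa of fat cells were detected too. Cebpa gave 1566, 1293 and 1675 on the brighter of its 2 probes. Others were detected as well, among them Acta2 and Tagln, which smooth muscle and cultured myoblasts both use. Across all lists 334 of 476 measured genes (70.2%) were detected.

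The highest probe signal of a named gene was that of Rpl41, a ribosomal protein, with 554272, 478201 and 601567. Myl11, the fast regulatory myosin light chain, followed with 517329, 467985 and 586773, and then Rn45s, the ribosomal RNA precursor, with 423366, 411138 and 463348. The 20 genes with the highest signals held 6 ribosomal protein genes and 3 genes of the muscle lists, Myl11, Myh3 and Tnnt2. The others include Tmsb10, which binds actin monomers, Pcolce and Timp2 of the matrix, the chaperone Ppia, the ubiquitin gene Ubb and Aldh3a1, an aldehyde dehydrogenase, with 383557, 362710 and 440219. The muscle genes thus share the top signals with genes of translation, cytoskeleton and matrix. A place among these signals belongs to a probe and is not read as a level of its gene. The 10 brightest probes held 2.09% to 2.35% of the summed signal of an array, and the 1000 brightest 56.6% to 58.7%.

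The 3 experiments were compared over all 12 arrays with limma, in a model of group and experiment, on 24262 probes marked on all 3 arrays of at least 1 group. In experiment 3, 3696 probes (15.2%) were higher and 5314 (21.9%) lower than in experiments 1 and 2 at an adjusted p under 0.05. Between experiments 2 and 1, limma found 0 probes higher (0%) and 0 lower (0%), where 1556 (6.41%) had an unadjusted p under 0.05 and the lowest adjusted p was 0.757. Rpl39l5, a ribosomal protein-like gene, gave control signals of 114, 93.2 and 607, and its log2 difference of experiment 3 was 2.23 (SE 0.08, adjusted p 5.7e-07 by limma). Ppp1r14bl gave 1153, 913 and 4466, a difference of 1.87 (SE 0.04, adjusted p 6.83e-08 by limma). Both genes were higher in experiment 3 in all 4 groups, which was part of how they were chosen. Mef2a, a muscle transcription factor, gave control signals of 622, 514 and 1468, and its difference was 0.87 (SE 0.11, adjusted p 0.000556 by limma). The genes furthest the other way included Abra, an actin-binding activator of muscle transcription, with 799, 684 and 625, and the transglutaminase Tgm2, with 123, 126 and 81.1, at log2 differences of -0.52 and -0.56 (adjusted p 0.0101 and 0.00961 by limma). Experiment 3 is the one on slide 2, so experiment and slide cannot be told apart. In the 9 compound arrays alone 5804 probes passed the same test, and 5625 of them (96.9%) differed in the same direction in the control arrays, beside 76.3% of all tested probes.

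Against the mean of the 3 compound groups, 3978 of 24262 probes (16.4%) were higher and 4885 (20.1%) lower in the DMSO control myotubes at an adjusted p under 0.05 by limma. The 3 control arrays lay above all 9 compound arrays for 1441 probes (5.94%) and below all of them for 1362 (5.61%). Of 10732 named genes tested, 1969 were higher and 2450 lower. This mean weights the 3 compounds equally, and a gene that differs strongly in 1 group can pass through that group alone. Without the GR24 group, the comparison with pinosylvin and resveratrol gave 2030 probes higher and 1901 lower.

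The markers show this. Acta1 had log2 values of 5.29, 5.30 and 5.07 on the control arrays, 1.37, 1.27 and 1.37 with GR24, 5.24, 5.29 and 5.16 with pinosylvin, and 4.99, 5.06 and 4.93 with resveratrol. Myog had 5.24, 5.25 and 5.08 on the control arrays, -0.38, -1.05 and -0.50 with GR24, 6.01, 5.85 and 5.91 with pinosylvin, and 4.72, 4.67 and 4.65 with resveratrol. The GR24 arrays stood far below the control for both genes, and for Myog the control lay between pinosylvin and resveratrol without overlap. Control minus the compound mean was 1.37 for Acta1 (SE 0.06, adjusted p 1.54e-07 by limma) and 1.87 for Myog (SE 0.12, adjusted p 1.28e-06 by limma). Without the GR24 group it was 0.11 (adjusted p 0.387) and -0.11 (adjusted p 0.308), so both calls rest on GR24.

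Ckm had log2 values of 2.19, 2.15 and 1.89 on the control arrays, -0.41, -0.51 and -0.59 with GR24, 2.48, 2.44 and 2.05 with pinosylvin, and 1.07, 1.21 and 0.84 with resveratrol. Tnnt3 had 5.87, 6.05 and 5.91 on the control arrays, 5.04, 5.01 and 4.96 with GR24, 6.51, 6.38 and 6.56 with pinosylvin, and 6.02, 6.18 and 6.04 with resveratrol. For Ckm the control overlapped pinosylvin and lay above the other groups, and for Tnnt3 it lay above GR24, below pinosylvin and overlapped resveratrol. Within each of the 3 experiments, Ckm was higher with pinosylvin than in the control, and Tnnt3 higher with resveratrol than in the control. The difference was 1.13 for Ckm (SE 0.11, adjusted p 3.03e-05 by limma) and did not pass the test for Tnnt3 (0.09, SE 0.06, adjusted p 0.335). Without the GR24 group, in a fit that did not pair the arrays by experiment, Ckm no longer passed (0.40, adjusted p 0.0749 by limma). Tnnt3 was lower in the control in that fit (-0.34, adjusted p 0.0161 by limma). Within each experiment, Ckm in the control lay above the mean of pinosylvin and resveratrol. Whether Ckm passes in a paired fit without GR24 was not tested.

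**Figure D3:**
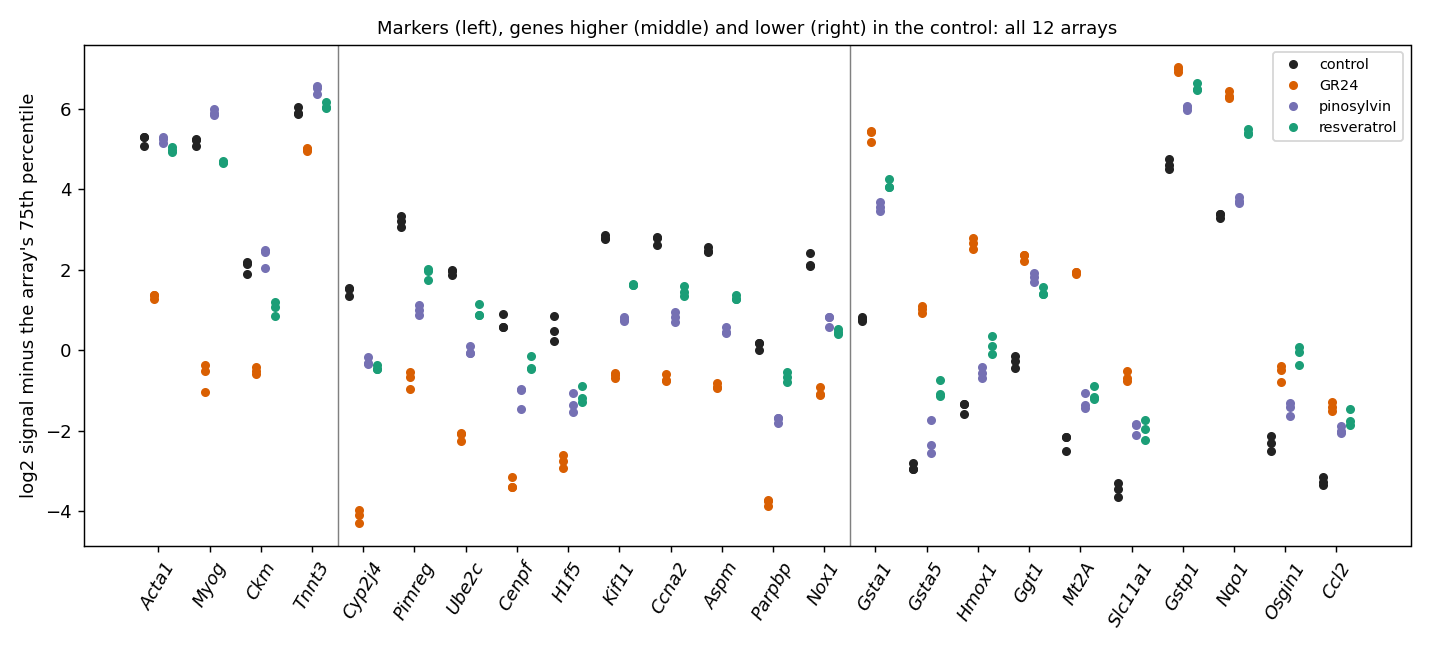
Log2 signal relative to the 75th percentile of the array, on each of the 12 arrays, for the 4 markers, and, among named genes marked on all 12 arrays, the 10 furthest above the compound mean in the DMSO control and the 10 furthest below. The 4 markers are lowest with GR24, while for the other 20 genes all 3 control arrays lie above or below all 9 compound arrays, which was part of how they were chosen.

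Of 97 muscle genes tested, 67 were higher (69.1%) and 5 lower (5.15%) in the control than the compound mean, beside 16.4% and 20.1% of all tested probes. The median log2 difference was 0.40 beside -0.03 over all tested probes. Without the GR24 group the counts were 12 and 6 and the median 0.02, beside 8.37% of all probes higher and 7.84% lower. The compounds differed in these counts. Against GR24 alone, 75 muscle genes were higher and 7 lower in the control, beside 25.5% and 31.6% of all probes. Against pinosylvin, 6 were higher and 22 lower, beside 8.28% of all probes each way. Against resveratrol, 36 were higher and 3 lower, beside 8.99% and 8% of all probes. These comparisons share the control arrays, and the differences between them were not tested here. Control arrays lay above all compound arrays for Myf6, Myh1, Myh4, Myh8, Myl3, Actc1 and Dmd. As a share of the tested muscle genes this is near the 5.94% of all tested probes. Myh1, Myh4, Myh8 and Actc1 differed from the compound mean by 1.07, 1.25, 1.01 and 1.31, and without GR24 by 0.65, 0.78, 0.59 and 0.51. Myl3 and Dmd were marked on 0 GR24 arrays, and no difference is given for them. Myf6 was not marked on all 12 arrays either. Such genes can enter the test through the group where they are high. The place of Myf6, Myl3 and Dmd above the compound arrays is thus partly set by the filter on probes. Markers of other cells differed as well, and not all in the direction of the muscle genes. Those of neurons, heart and smooth muscle are given under Other observations. Of 13 tested markers of undifferentiated cells and fibroblasts, 8 were higher (61.5%), among them Vim at 0.67 and Col3a1 at 0.58. The 2 lower ones were Hes1 at -0.63 and Id2 at -0.29. Without GR24 the counts were 4 and 1, with Vim at 0.55, Col3a1 at 0.07, Hes1 at -0.62 and Id2 at 0.17. Of 4 blood cell markers, 0 were higher and 2 lower by limma, Cd68 at -1.05 and Cd14 at -0.56, and without GR24 0 passed either way. Their part in the muscle counts was not tested. Of 103 metabolic genes, 16 were higher (15.5%) and 37 lower (35.9%) than the mean of all compounds, and 5 and 23 without GR24. Redox defence genes make up 14 of those 37 and 12 of those 23, and most of that list was reported by the study as raised by GR24 on these arrays. Of 85 receptors, 15 were higher (17.6%) and 24 lower (28.2%), and 4 and 15 without GR24. The shares of both classes that were higher are near the 16.4% of all tested probes, but the receptor lists differed. Of 15 insulin and growth factor receptors, 9 were higher (60%) and 3 lower, and 3 and 3 without GR24. Of 19 adipokine, cytokine and innate receptors, 1 was higher and 8 lower (42.1%), and 0 and 4 without GR24. Of 15 secreted factors, 4 were higher and 4 lower. Of 26 nuclear receptors, 11 were lower (42.3%, beside 20.1% of all probes) and 1 higher, Nr4a2 (3.85%, beside 16.4%), and without GR24 these counts were 5 and 0.

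Cell cycle genes were higher in the control with and without GR24. Of 12 tested, 11 were higher (91.7%, beside 16.4% of all probes) and 0 lower (median log2 difference 1.48), and for 10 the control arrays lay above all 9 compound arrays. The 11 include the inhibitor Cdkn1c, at 1.15 (adjusted p 8.64e-05 by limma). Without GR24, 10 were higher and 1 lower, Cdkn1a, with a median of 1.08, and Cdkn1c no longer passed (0.37, adjusted p 0.0858 by limma). Ccna2, the cyclin of DNA replication, had log2 values of 2.63, 2.80 and 2.81 on the control arrays, -0.74, -0.59 and -0.78 with GR24, 0.71, 0.95 and 0.83 with pinosylvin, and 1.35, 1.60 and 1.46 with resveratrol. The control was highest, then resveratrol, pinosylvin and GR24, without overlap. Its difference from the compound mean was 2.21 (SE 0.08, adjusted p 3.09e-08 by limma). Among the 10 named genes furthest above the compound mean of those marked on all 12 arrays, Pimreg, Ube2c, Cenpf, Kif11 and Aspm also act in mitosis and the linker histone H1f5 packs DNA, with differences of 2.18 to 2.47. The largest was that of Cyp2j4, a cytochrome P450, whose log2 values were 1.55, 1.53 and 1.34 on the control arrays, -4.09, -3.98 and -4.31 with GR24, -0.33, -0.18 and -0.32 with pinosylvin, and -0.46, -0.48 and -0.37 with resveratrol. It differed by 3.09 (SE 0.08, adjusted p 5.77e-09 by limma). Nox1, an oxidase that makes superoxide, differed by 2.15, and Parpbp, which acts in DNA repair, by 2.17. All 10 genes also passed the test without the GR24 group, though their choice already placed the control above every pinosylvin and resveratrol array.

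Redox genes were lower in the control. Among the 18 tested, 14 passed the test as lower (77.8%, beside 20.1% of all probes) and 0 as higher (median log2 difference -0.64), and 12 passed as lower without GR24. Most genes of this list are ones that the study reported as raised by GR24 on these same arrays. The share against all compounds was thus partly set by the choice of the list. The count without GR24 uses the same control arrays. Gsta1, a glutathione transferase, had log2 values of 0.78, 0.83 and 0.73 on the control arrays, 5.43, 5.45 and 5.18 with GR24, 3.69, 3.47 and 3.55 with pinosylvin, and 4.27, 4.06 and 4.06 with resveratrol. All 9 compound arrays lay far above the control. The difference was -3.57 (SE 0.08, adjusted p 3.14e-09 by limma). Hmox1, which degrades haem, had -1.34, -1.33 and -1.59 on the control arrays, 2.67, 2.78 and 2.52 with GR24, -0.41, -0.57 and -0.68 with pinosylvin, and 0.35, 0.11 and -0.09 with resveratrol. It too was lowest in the control, by a difference of -2.16 (SE 0.10, adjusted p 1.9e-07 by limma). Gsta5, Ggt1, Gstp1 and Nqo1 of glutathione and quinone metabolism, the metallothionein Mt2A, the metal transporter Slc11a1, Osgin1 and the chemokine Ccl2 completed the 10 genes furthest below among those marked on all 12 arrays, at -2.17 to -1.57. These 10 also passed without the GR24 group, though their choice already placed the control below every pinosylvin and resveratrol array.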

How the data were processed

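RNA of 12 cultures of rat L6 myotubes was measured on Agilent 1-colour arrays. The authors deposited the output of Agilent Feature Extraction 12.0.0.7 for each array, with processed signals as intensity, background subtracted within the array and not normalized between arrays. A deposited series table holds log2 values that the authors normalized by a method not stated for it.

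The array's own control spots and spots marked as outliers were left out of the values, and the log2 signals of a probe's remaining spots were averaged. A probe counted as well above background on an array if more than 0.5 of its spots, outliers included, carried the mark. Values are log2 of the processed signal minus log2 of the array's 75th percentile over probes. This percentile was first taken over spots and was changed to probes after the data had been seen. A gene's values are those of whichever of its probes had the highest mean log2 value on all 12 arrays. Names came from a gene table of the build GRCr8.

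limma 3.58.1 in R 4.3.3, with data.table (version 1.17.8), fitted a mean per group over all 12 arrays, or group and experiment, with eBayes, and p-values were adjusted by Benjamini and Hochberg's method across the 24262 probes of the test, at 0.05. It was tested on simulated data. Named genes are the markers, list members, the 20 with the highest mean log2 signal, and, among genes marked on all 12 arrays and past the threshold, the 10 furthest from the compounds each way without overlap of control and compound arrays and the 5 furthest each way in experiment 3 with 1 sign in all 4 groups. Which list members are described, Mef2a and Tlr9 included, was chosen after their values were seen. So were the genes with a probe marked in the control alone and those whose probes differ. Comparisons with each compound alone were added after the data had been seen. The members and lists were chosen with earlier results of these data known.

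Deviations from the group mean correlated between arrays of the same experiment number at 0.191 to 0.744, and between others at -0.663 to 0.475, with every same-number pair positive. Number 3, which is also slide 2, stood apart from the others, while numbers 1 and 2 were not separated. Alternatives were other normalizations, normexp (offset 50) on the median signal, the deposited table, filters, percentile bases, eBayes settings, the replicate block, the slide, other detection rules and leaving out arrays.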

Additional observations from a re-analysis of the deposited data

How the results depend on the processing

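Detected genes numbered 10283 to 12062 under other detection rules and probe choices, and 10295 to 10693 without 1 control array. The count of probes that differed between control and compounds, 8863, was 7012 to 9152 when 1 array was left out, 11648 with the experiments as a block (a paired fit), 11611 with the slide as a term, 9279 on slide 1 only and 9998 with the percentile over spots. Slide 2 holds 1 array per group and gives no test. The block moved this count by less than 1.5 times, while some list counts moved more, such as the fatty acid genes lower in the control, from 3 to 8. The share of calls that were higher in the control, 44.9%, was 43.7% to 51.1% when 1 array was left out and 38% with the percentile over spots. Without the GR24 group, an alternative chosen after seeing the data like that of the spots, the count fell to 3931, Acta1 and Ckm no longer passed, and the differences of Myog and Tnnt3 turned to -0.11 and -0.34. Fewer arrays and the loss of 1 group are part of that setting, and it did not pair the arrays by experiment. For the 4 markers and the 20 genes furthest from the compounds, the other 572 values kept direction and side of the threshold. Without GR24, list members also lost calls, Myh3 (adjusted p 0.379) and Nr4a2 (adjusted p 0.972) among them. For experiment 3, 9010 probes became 5804 with only the 9 compound arrays, where fewer arrays enter the fit. Experiment 2 against 1 gave 0 in all 9 alternatives by limma, and 1556 probes at an unadjusted p under 0.05 in the fit reported. Over other scalings the median of all probes moved by less than 0.1. Relative log2 levels of Myog, Ckm and Tnnt3 shifted by over 1 SD with normexp and with the deposited table, and that of Acta1 with the deposited table. Signal over background limits the genes near the lowest marked signals, such as Myod1, Pax7, Insr and Chrne, where detection on all 3 arrays says little about amount.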

Other observations

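Of the 45598 probes, 12 were marked on all 3 control arrays and on none of the 9 compound arrays, and 5 of these were named. They include those of Fmo1, a monooxygenase, with control signals of 94.4, 89.7 and 96.2, and Orc1, which licenses replication origins, with 51.7, 45.0 and 61.4. The others named are those of Mad2l1, of the spindle checkpoint, with 89.7, 39.3 and 44.7, Hpgd, which inactivates prostaglandins, with 58.5, 39.5 and 44.5, and C14h7orf57 with 38.9, 33.0 and 37.0. Other probes of the same genes were not examined for this. The reverse, marked on all 9 compound arrays and no control array, held for 5 probes, among them those of the growth factor Tgfa and of Derl3, which acts in the degradation of misfolded proteins. All of these signals lie near the lowest marked ones, and no fold is given.

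Probes of 1 gene gave unlike signals in several cases on the control arrays. For Tpm3, a tropomyosin, 4 of 7 probes were detected, with log2 values from 0.21 to 5.01, and the other 3 were absent. Met, a growth factor receptor, had 1 probe at 4929, 3845 and 4820 and another at 9.12, 7.21 and 24.0. Slc2a3, a glucose transporter, had 1 probe at 13432, 10513 and 13057 and another at 84.3, 59.3 and 99.1. Dag1, dystroglycan, had 155730, 129160 and 158740 on its brightest probe and 501, 396 and 550 on its dimmest. Other genes given above by their brightest probe also had a far dimmer one, still marked on all 3 control arrays. From dimmest to brightest probe, log2 values ran from -3.17 to 2.16 for Vwf, -2.65 to 2.65 for Nr3c1 and -0.58 to 5.64 for Cdkn1a. They ran from -1.18 to 5.37 for Igf2, -3.24 to 2.41 for Ptger4 and -3.52 to 0.73 for Cebpa.

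The 3 neuron markers that were detected, Syn1, Gap43 and Tubb3, were each higher in the control than the compound mean, beside 16.4% of all tested probes, as were 3 of 3 tested heart markers and 3 of 4 of smooth muscle. Without the GR24 group these counts were 3 of 3 for neurons, 1 of 3 for heart and 0 of 4 for smooth muscle by limma, beside 8.37% of all probes. Gap43 and Tubb3 had log2 differences of 1.24 and 0.86 (adjusted p 1.43e-06 and 1.31e-05 by limma). Syn1 was not marked on every compound array, and no difference is given for it. For Gap43 and Tubb3 the control arrays lay above all 9 others, as for 5.94% of all probes. They did for Syn1 too, but a probe can enter the test through the group where it is high. The part of Syn1 in these counts is thus partly set by the filter on probes. The control signals of Gap43, a growth cone protein, were 335, 245 and 298. Of the same list, Rbfox3, Snap25, Syp and Stmn2 were absent, with signals of at most 5.80, 9.73, 6.69 and 7.31.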
